A study of Homo sapiens with 12 samples.

Results

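The mitochondrial chromosome encodes 13 proteins of the respiratory chain, and 10 of these genes were followed in TE7, a human cell line derived from esophageal squamous cell carcinoma. They were chosen by symbol among the 57755 gene identifiers of the expression tables. MT-ND1, MT-ND2, MT-ND4, MT-ND5 and MT-ND6 encode subunits of complex I, MT-CYB encodes cytochrome b of complex III, MT-CO1, MT-CO2 and MT-CO3 encode the core subunits of complex IV, and MT-ATP6 encodes a subunit of ATP synthase, complex V. The cells received THZ1, a covalent inhibitor of CDK7 that also binds CDK12 and CDK13 at higher doses, at 50 nM for 2, 4, 6 or 12 h, or the solvent DMSO. All TE7 cells grew in DMEM, and each condition gave 1 library of polyadenylated RNA. These 5 libraries belong to a series of 12 that also covers KYSE510, another line from the same type of cancer, and a dose of 200 nM for 6 h in both lines. The title of the DMSO library gives 0 h and its time label gives 12 h, and no DMSO library is labelled with an earlier time. Which of these times holds is not known, and the slopes below place DMSO at 0 h. Hours of THZ1 and time in culture thus cannot be told apart over the 5 libraries. The p-values of a slope over hours measure only the scatter of 5 single libraries of 1 line around a straight line.

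Mitochondrial DNA is not transcribed by RNA polymerase II, whose initiation and elongation CDK7 and its relatives serve, but by the single-subunit polymerase POLRMT. POLRMT reads long polycistronic transcripts from a heavy-strand and a light-strand promoter, and excision of the tRNAs frees the messengers and the 2 ribosomal RNAs. Among the protein genes MT-ND6 alone is read from the light-strand promoter. The other mature messengers receive a poly(A) tail, which in several of them also completes the stop codon, whereas human MT-ND6 messenger is known to lack one.

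The 3′ ends show these differences between the genes. The last 30 bases of each gene are given 5′ to 3′ in the direction of its messenger, from the GENCODE 29 transcripts on GRCh38, with the letters after the last sense codon in capitals. The authors' tables place all 37 mitochondrial genes at the coordinates of that annotation.

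MT-ND1: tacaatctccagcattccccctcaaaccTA
MT-ND2: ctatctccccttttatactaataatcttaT
MT-ND4: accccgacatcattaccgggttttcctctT
MT-ND5: ctcatcctaaccctactcctaatcacaTAA
MT-CYB: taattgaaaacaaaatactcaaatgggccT
MT-CO1: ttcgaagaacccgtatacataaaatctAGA
MT-CO2: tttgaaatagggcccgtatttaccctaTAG
MT-CO3: tgtatgtctccatctattgatgagggtctT
MT-ATP6: gtaagcctctacctgcacgacaacacaTAA
MT-ND6: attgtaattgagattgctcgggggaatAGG

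In 5 of the 10 genes, MT-ND1, MT-ND2, MT-ND4, MT-CYB and MT-CO3, the encoded sequence stops 1 or 2 letters into the stop codon, which the tail completes as TAA. MT-ND6 carries a whole AGG and needs no tail for it. It lies on the minus strand of chromosome M at 14149 to 14673, next to the end of MT-ND5 (12337 to 14148, plus strand) and before MT-CYB (14747 to 15887, plus strand). Its messenger is 35.6% G and 7.05% C, while the 9 heavy-strand messengers are 9.50% to 16.2% G and 30.03% to 35.98% C. Heavy-strand precursors run across the MT-ND6 locus as antisense RNA. Whether the authors counted by strand is not stated in the labels or headers, so such reads and those of MT-ND6 messenger cannot be told apart.

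Values are FPKM, fragment counts scaled to gene length and library depth, which is meant to let levels be set side by side between genes. For genes that overlap a neighbour such levels are less certain. The series has no spike-in that the labels mention, so every value is a share of the library. More mitochondrial RNA per cell and less nuclear RNA per cell cannot be told apart, and the number of cells does not show in a share. Summed FPKM ran from 590619 to 729515 over the 5 libraries, with 12364 to 13982 genes at or above 1 FPKM. The fragment totals are unknown here, but genes with the interval of 1 fragment placed the relative depth between 0.948 and 1.02, with DMSO at 1. All 50 values of the 10 genes had an accepted estimate. The authors' 95% upper bound lay 0.229% to 1.22% above the value for 7 genes, and 4.13% to 4.18% above it for MT-ATP6, MT-CO3 and MT-ND4, whose loci overlap a neighbour. These bounds cover counting error only. All 8 squamous epithelial markers reached 1 FPKM in each of the 5 libraries, with sums of 2695 to 3307 FPKM. KRT8 and KRT18 did so among 6 glandular markers, 1 of 5 fibroblast markers did, and the 4 leukocyte and 2 endothelial markers measured stayed under 1 FPKM.

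The heavy-strand genes rose with hours of THZ1, while MT-ND6 had the least steep slope of the 10. After 12 h of THZ1 the 9 heavy-strand genes stood 2.38-fold to 4.58-fold above DMSO, and MT-ND6 stood 1.41-fold above it. All 9 heavy-strand slopes passed the test over hours, where 5.97% of all genes tested rose. That of MT-ND6 did not pass (slope 0.0475 ± 0.0173 log2 per hour, SE, 5 libraries, limma adjusted p = 0.0645). Set against MT-ND6 directly, none of the 9 passed an exact permutation test after adjustment (exact permutation adjusted p = 0.0571 to 0.099). Limma on the same differences called all 9. The plot of FPKM against hours shows the 10 genes library by library.

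**Figure D1:**
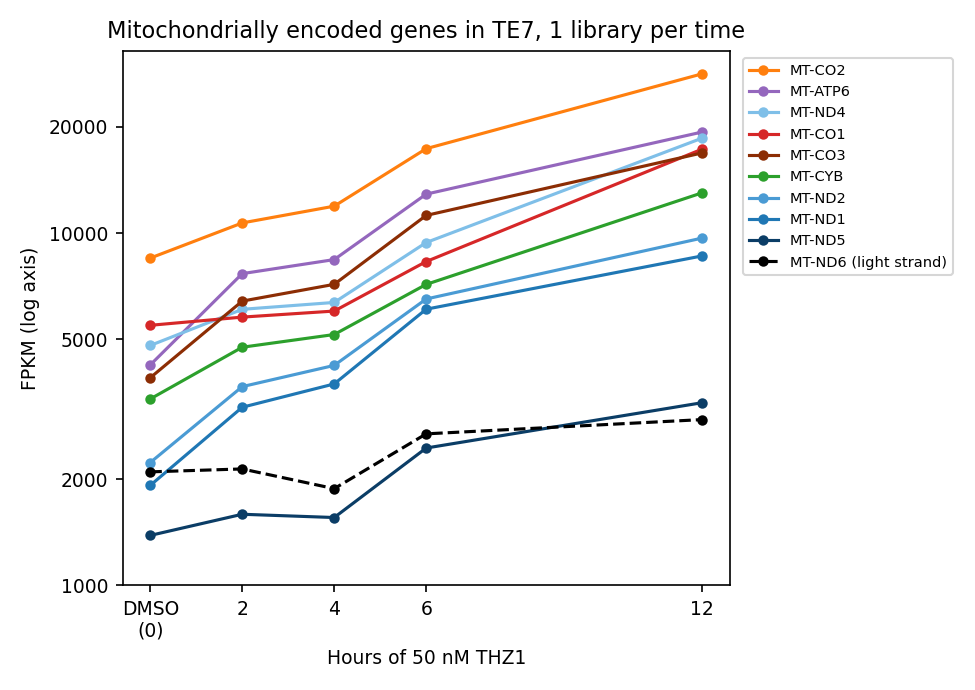
FPKM on a log axis of the 10 mitochondrially encoded genes in TE7, against hours of 50 nM THZ1 with DMSO placed at 0, 1 point per library. MT-CO2 runs highest in every library, and MT-ND6 (dashed) passes below MT-ND5 at 12 h, at 2955 against 3299 FPKM.

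Among the complex I genes, MT-ND1, a membrane-arm subunit next to the quinone site, had 1922 FPKM in DMSO and 3203, 3729.96, 6079 and 8612 FPKM after 2, 4, 6 and 12 h of THZ1. MT-ND2, a proton-pumping subunit, had 2231 FPKM in DMSO and 3665, 4209.95, 6499 and 9676 FPKM at these times. Both were higher at each later time than at the one before, and every treated library lay above DMSO. MT-ND4, another pumping subunit, had 4797 FPKM in DMSO and 6074, 6353, 9399.6 and 18596 FPKM. MT-ND4 shares a few bases with MT-ND4L upstream, so the authors' counting could split reads between them. MT-ND5, the pumping subunit at the far end of the arm, had 1386 FPKM in DMSO and 1591, 1558, 2453 and 3299 FPKM. MT-ND5 was the lowest heavy-strand gene of the 9 in each library, with the 4 h value slightly below that of 2 h.

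MT-ND6, the complex I subunit from the light strand, had 2099.5 FPKM in DMSO and 2139.9, 1881, 2692 and 2955 FPKM after 2, 4, 6 and 12 h of THZ1. It was below DMSO at 4 h and above it in the other 3 treated libraries. The bounds of the 2 h value (2115 to 2165 FPKM) overlapped those of DMSO (2075 to 2124 FPKM), so the 2 libraries could not be separated beyond counting error.

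In complex III, MT-CYB had 3381 FPKM in DMSO and 4741, 5152, 7149 and 13007 FPKM after 2, 4, 6 and 12 h. In complex IV, MT-CO1, which holds the site where oxygen is reduced, had 5472 FPKM in DMSO and 5773, 6006, 8301 and 17304 FPKM. MT-CO1 thus changed little up to 4 h and most of its difference lay after 6 h. MT-CO2, which takes the electrons from cytochrome c, had 8491 FPKM in DMSO and 10684, 11921, 17361 and 28311 FPKM. MT-CO3, a structural core subunit, had 3884 FPKM in DMSO and 6409.5, 7152, 11221 and 16883 FPKM. MT-CO3 stood below MT-CO1 in DMSO, at 0.710 of its level, and above it at 6 h, at 1.35 times its level, before the pair came to 0.976 at 12 h. In complex V, MT-ATP6, the subunit of the proton path, had 4223 FPKM in DMSO and 7670.25, 8408, 12897 and 19355 FPKM. MT-ATP6 overlaps MT-ATP8 and abuts MT-CO3, with which it shares a base in these coordinates, and reads of the 3 genes could be split in the authors' counting.

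By level, MT-CO2 was the highest of the 10 in all 5 libraries. In the 12 h library it was followed by MT-ATP6, MT-ND4, MT-CO1, MT-CO3, MT-CYB, MT-ND2, MT-ND1, MT-ND5 and MT-ND6. Of the neighbours in that order, MT-ATP6 and MT-ND4 had overlapping bounds (18553 to 20156 and 17828 to 19364 FPKM), and the value of MT-CO1 lay within the bounds of MT-CO3 (16184 to 17581 FPKM). The other neighbours were separated by more than their bounds. There was 1 library per condition, so no biological spread stands behind these orders. In the 12 h library 9 of the 10 genes were among the 20 highest of all genes, with MT-ND6 at rank 24, against 6 of the 10 in the DMSO library.

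Each THZ1 library was then set against DMSO on the log2(FPKM + 1) scale, as values without a test. Of the 10 genes, 4 stood at least 1.5-fold above DMSO at 2 h, where 5.58% of the 13828 genes tested did. At 4 h 5 genes did, against 6.94% of all genes. At 6 h 9 genes did, against 7.11%, and at 12 h 9 did, against 8.19%. The exception at 6 and 12 h was MT-ND6. The median change of the 9 heavy-strand genes was 0.49, 0.61, 1.08 and 1.95 log2 at 2, 4, 6 and 12 h, while the median over all genes tested was -0.06, -0.13, -0.24 and -0.60. MT-ATP6 had the largest change of the 10 at 2, 4 and 12 h (0.86, 0.99 and 2.20) and MT-ND1 at 6 h (1.66). Among the heavy-strand genes MT-CO1 had the smallest change at 2, 4 and 6 h (0.08, 0.13 and 0.60), and MT-ND5 at 12 h (1.25). MT-ND6 changed by 0.03, -0.16, 0.36 and 0.49.

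**Figure D2:**
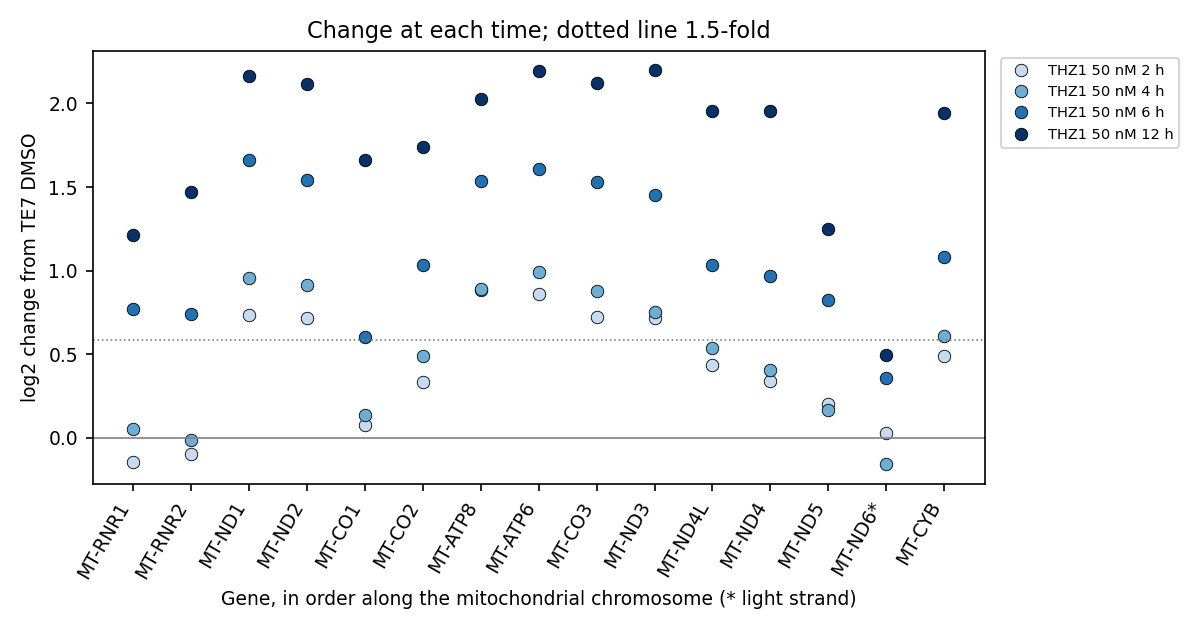
Change from TE7 DMSO in log2(FPKM + 1) at 2, 4, 6 and 12 h of 50 nM THZ1 for 15 genes, in order along the mitochondrial chromosome, 1 library per point. MT-ND6 is the only one of the 15 under the dotted 1.5-fold line at 12 h, at 0.49, and the highest points there are near 2.20.

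The change at 12 h did not run in one direction along the chromosome. MT-ND1, MT-ND2, MT-ATP6 and MT-CO3 lay between 2.12 and 2.20 log2 above DMSO, MT-ND4 and MT-CYB at 1.95 and 1.94, MT-CO2 and MT-CO1 at 1.74 and 1.66. MT-ND5, the last heavy-strand gene before MT-ND6, was at 1.25 although MT-CYB downstream was higher. At 2 h the same 4 had the largest changes of the 10, at 0.72 to 0.86, before MT-CYB at 0.49, and MT-ATP8, outside the 10, was at 0.88.

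A straight line in hours was fitted to every gene over the 5 libraries. Of 13828 genes, 825 rose (5.97%) and 5986 fell (43.3%), and 7917 had an unadjusted p under 0.05. Without DMSO 1278 genes rose, without 2 h 466 did, and without 12 h 540 rose and 2886 fell. All 9 heavy-strand genes were among those that rose, each with a slope above the 95th percentile of all genes, which was 0.0649 log2 per hour. The median heavy-strand slope was 0.165 log2 per hour and the median of all genes was -0.052. All 10 genes had an unadjusted p under 0.05, MT-ND6 at 0.0341. MT-ND6 passed without DMSO (slope 0.0565, limma adjusted p = 0.0454), and was at a limma adjusted p of 0.428 without 12 h.

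The steepest of the 10 was MT-ND1, at 0.174 ± 0.024 log2 per hour (SE; limma adjusted p = 0.00368). MT-ATP6 followed at 0.171 ± 0.024 (limma adjusted p = 0.00376), with MT-CO3 and MT-ND2 both at 0.169 ± 0.021 (limma adjusted p = 0.00285 and 0.00289). These 4 differ by less than 1 SE. MT-ND4 had 0.165 ± 0.014, MT-CYB 0.158 ± 0.012 and MT-CO2 0.147 ± 0.013, each with a limma adjusted p of 0.00174, and their points lay closest to a line. MT-CO1 had 0.146 ± 0.018 (limma adjusted p = 0.00286). MT-ND5 was the least steep heavy-strand gene, at 0.110 ± 0.017 (limma adjusted p = 0.00494). Without the 12 h library MT-ND5 and MT-CO1 no longer passed (limma adjusted p = 0.0716 and 0.108), and 7 of the 9 did.

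FPKM is relative, so the fit was repeated under other scalings. Median-of-ratios scaling moved the median 12 h change of all genes by 0.35 log2 and equal sums of FPKM moved it by -0.22. Under the first, 1838 genes rose and 3893 fell, and under the second 400 rose and 7677 fell. The 9 heavy-strand genes passed under both, and MT-ND6 passed under median of ratios alone (0.0844, limma adjusted p = 0.0272). The median heavy-strand slopes were 0.202 and 0.139, which is 0.223 and 0.212 above the median of all genes, against 0.217 in the values as deposited.

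MT-ND6 was set against the heavy-strand genes within each library, where scaling cancels. MT-ND6 minus the mean of the 9 was -0.73 log2 in DMSO and -1.20, -1.50, -1.57 and -2.14 after 2, 4, 6 and 12 h of THZ1. The gap from this mean thus widened at each time. Taken from the median heavy-strand gene, it was -1.67 at 4 h and -1.62 at 6 h, so that step did not widen. MT-ND6 made up 5.54% of the summed FPKM of the 10 genes in DMSO and 4.12%, 3.34%, 3.20% and 2.14% at these times. Set against its neighbour MT-ND5 alone, MT-ND6 was at 1.52 times its level in DMSO and at 1.34, 1.21, 1.10 and 0.896 times it. It ranked 8 of the 10 in DMSO, 9 at 2, 4 and 6 h and 10 at 12 h.

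All 9 heavy-strand genes had a steeper slope than MT-ND6, by 0.0622 (MT-ND5) to 0.126 (MT-ND1) log2 per hour. An exact two-sided permutation test over the 120 orders of the 5 libraries, applied to every gene's difference from MT-ND6, gave the smallest p it allows, 0.00833, for MT-ND4, MT-CO2 and MT-ND5. The unadjusted exact p was 0.0167 for MT-CYB and MT-CO1, 0.0333 for MT-CO3 and MT-ND2, 0.0417 for MT-ND1 and 0.05 for MT-ATP6. Thus 8 of the 9 had an unadjusted p under 0.05, where 0.680% of the 13827 other genes were steeper than MT-ND6 at that level. The slope of MT-ND6 itself lay at percentile 91.8 of all genes, so few genes could be steeper, which caps that share. After adjustment over all genes the exact permutation p ran from 0.0571 to 0.099 for the 9, and none of the 13827 genes passed in either direction, with 6180 under an unadjusted 0.05. With 120 orders, the smallest p gives an adjusted p under 0.05 once 2305 genes share it, and 2019 did, so the adjusted exact p says little about single genes. Limma on the same differences called all 9, but every difference shares the scatter of MT-ND6. The direction was the same in 9 of 9 genes, which share their libraries.

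The remaining genes of the mitochondrial chromosome were not part of the 10 and give the surroundings. MT-ND3, MT-ND4L and MT-ATP8, the other 3 heavy-strand protein genes, rose with slopes of 0.176, 0.161 and 0.156 log2 per hour (limma adjusted p = 0.00212, 0.00174 and 0.00545). MT-ATP8 overtook MT-CO2 as the highest gene of the library in all 4 treated libraries, and MT-CO2 was highest in DMSO. MT-ATP6, which overlaps MT-ATP8, stood at 0.584 of its level in DMSO and at 0.575, 0.626, 0.616 and 0.657 of it at the 4 times. How reads were split between these overlapping genes could bear on the order. The ribosomal RNAs, whose mature forms carry at most short tails, were flatter at first. MT-RNR2, the large one, had 2099.7 FPKM in DMSO and 1962, 2079, 3508 and 5814 FPKM after 2, 4, 6 and 12 h. MT-RNR1, the small one, had 378 FPKM in DMSO and 341, 392, 644 and 876 FPKM. At 2 and 4 h MT-RNR2 differed from DMSO by -0.10 and -0.01 log2 and MT-RNR1 by -0.15 and 0.05 log2. MT-CO1 also changed little at these times, by 0.08 and 0.13 log2, and whether tail length bears on this was not tested. The slope of MT-RNR2 was 0.139 and that of MT-RNR1 was 0.118, and both passed (limma adjusted p = 0.00557 for MT-RNR2 and 0.00796 for MT-RNR1). MT-ND1, which follows MT-RNR2 on the same precursor, stood at 0.915 of its level in DMSO and at 1.63, 1.79, 1.73 and 1.48 times it. All 22 tRNA genes were listed at 0 in the 5 libraries, so no value for them is given.

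The 37 genes together took 8.88% of the summed FPKM in DMSO and 12.9%, 13.3%, 18.9% and 27.3% after 2, 4, 6 and 12 h. The 10 genes alone took 18.9% at 12 h, against 6.26% in DMSO. The nuclear genes summed to 514275, 532859, 527319 and 530442 FPKM at 2, 4, 6 and 12 h of THZ1, against 551225 FPKM in DMSO, and did not fall from 2 to 12 h. Scaling to equal nuclear sums gave a median heavy-strand slope of 0.166.

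Of 17 nuclear genes tested for the transcription, replication and maintenance of mitochondrial DNA, 12 fell, where 43.3% of all genes did. TFAM alone rose, where 5.97% of all genes did. Their median slope was -0.103 log2 per hour, against -0.052 over all genes. POLRMT, the polymerase itself, had 16.8 FPKM in DMSO and 13.4, 12.6, 9.64 and 7.04 FPKM at the 4 times (slope -0.094 log2 per hour, limma adjusted p = 0.00521). TEFM, its elongation factor, had 4.42 FPKM at 12 h, against 15.2 FPKM in DMSO, and MTERF1, listed as MTERF and named for termination, had 3.87 FPKM at 12 h, against 16.4 FPKM in DMSO. Both fell (limma adjusted p = 0.00287 and 0.00181). TFAM, which bends DNA at the promoters and packages the genome, had 34.3 FPKM in DMSO and 42.7, 46.9, 49.0 and 56.3 FPKM (slope 0.0521, limma adjusted p = 0.0284). TFAM lost its call when FPKM was scaled to equal sums, at a slope of 0.0272 and a limma adjusted p of 0.207. TFB2M, the promoter-melting factor, had 14.6 FPKM at 12 h, against 11.5 FPKM in DMSO, and did not pass (limma adjusted p = 0.791). POLG, the replicative DNA polymerase, and TOP1MT, the mitochondrial topoisomerase, fell with slopes of -0.160 and -0.150.

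Among 28 genes for mitochondrial RNA processing, stability and decay, 17 fell, where 43.3% of all genes did, and FASTKD5 alone rose, where 5.97% did. Their median slope was -0.0841 log2 per hour, against -0.052 over all genes. FASTKD5, needed for messengers that no tRNA flanks, rose by 0.126 log2 per hour (limma adjusted p = 0.0125). LRPPRC, which binds and stabilises messengers, had 46.6 FPKM at 12 h, against 51.2 FPKM in DMSO, and its partner SLIRP had 327 FPKM at 12 h, against 372 FPKM in DMSO, and neither passed (limma adjusted p = 0.388 and 0.49). MTPAP, the poly(A) polymerase, had 9.91 FPKM in DMSO and 16.0, 17.1, 14.8 and 7.11 FPKM, and PNPT1, the decay nuclease, had 31.5 FPKM at 12 h, against 24.9 FPKM in DMSO, and neither passed (limma adjusted p = 0.272 and 0.631). TBRG4, of the FASTK family of mitochondrial RNA-binding proteins, had 18.7 FPKM at 12 h, against 53.8 FPKM in DMSO, and fell (limma adjusted p = 0.00292). TRMT10C, a subunit of the RNase P that frees the 5′ ends of tRNAs, had 26.4 FPKM in DMSO and 36.3, 29.4, 20.2 and 8.13 FPKM, and fell (slope -0.156, limma adjusted p = 0.011). KIAA0391, which encodes the nuclease of that enzyme, fell with a slope of -0.150.

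Of 73 nuclear-encoded subunits of the same complexes tested, 13 rose and 5 fell, where 5.97% and 43.3% of all genes did. With equal sums of FPKM 3 rose and 12 fell, where 400 and 7677 of all genes did. With median-of-ratios scaling 29 rose and 2 fell, where 1838 and 3893 of all genes did. The balance of calls within the 73 thus depends on the scaling, as it does over all genes. As deposited, their median slope was 0.021, with a largest slope of 0.0847 log2 per hour (NDUFA4, a complex IV subunit, limma adjusted p = 0.0108). In complex I, 5 rose and 5 fell among 36 tested, and NDUFS1 was left out for a failed estimate. NDUFC2 had 414 FPKM at 12 h, against 250.3 FPKM in DMSO, and rose, while NDUFA8 had 20.6 FPKM at 12 h, against 76.7 FPKM in DMSO, and fell. Complex III had 2 of 9 genes that rose, complex IV 3 of 11 and complex V 3 of 17, and none of these 37 fell as deposited. With equal sums the rises numbered 0, 1 and 1, and 3 complex V genes fell. The median slope of complexes I and V was positive as deposited (0.00777 and 0.0227) but negative when FPKM was scaled to equal sums (-0.0173 and -0.00251). Complex III had a median slope of -0.00017 as deposited, with a positive one under median-of-ratios scaling (0.0366). As deposited, no nuclear subunit had a slope as high as that of MT-ND5.

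**Figure D3:**
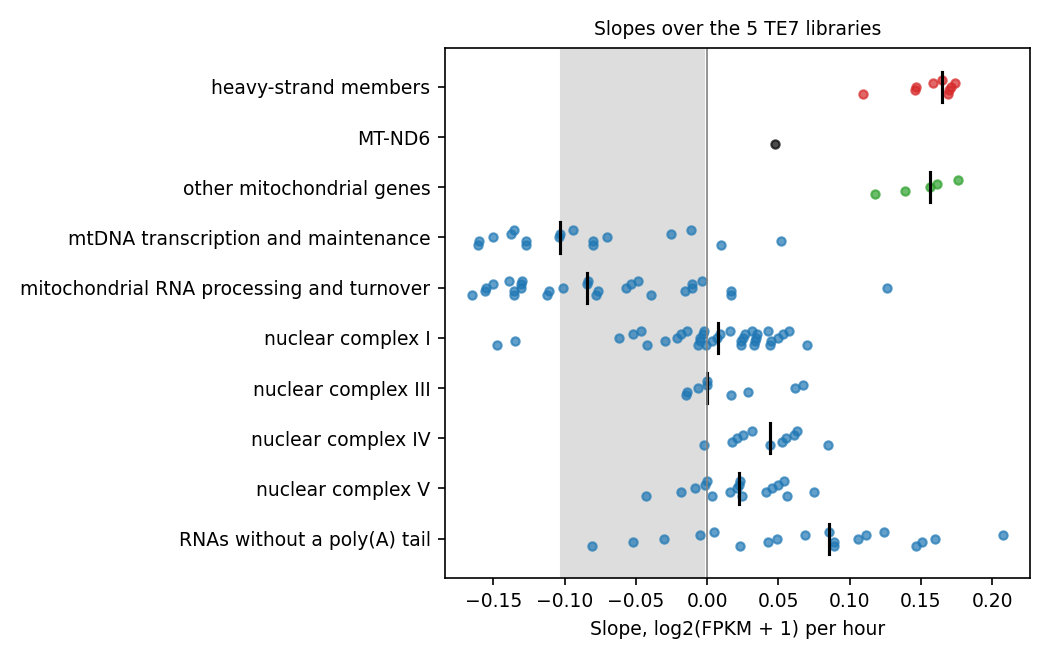
Slopes in log2(FPKM + 1) per hour over the 5 TE7 libraries, 1 point per gene, with a bar at each group's median and a grey band over the middle 50 percent of all 13828 genes. The 9 heavy-strand genes lie at 0.110 to 0.174, MT-ND6 at 0.0475, and the nuclear subunits of the complexes reach at most 0.0847.

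Because MT-ND6 messenger lacks a poly(A) tail, RNAs listed as usually made without a regular tail were examined in the same libraries. Whether their reads here came from forms with a tail was not tested. Of 25 such RNAs, 19 passed the filter on low values, 9 rose and 1 fell, where 5.97% and 43.3% of all genes did, with a median slope of 0.0853. HIST1H4C and HIST1H3B passed the filter only through treated libraries, with 0.651 and 0.5 FPKM in DMSO, so these counts and the median are a description of RNAs the filter helped to choose. RN7SK, the scaffold of the P-TEFb inhibitory complex, had 9.59 FPKM in DMSO and 8.63, 9.76, 8.81 and 34.5 FPKM, and TERC, the telomerase RNA, had 2.58 FPKM in DMSO and 4.37, 10.7, 13.2 and 13.1 FPKM. Both rose (limma adjusted p = 0.0225 and 0.0377). TERC lost its call with equal sums (slope 0.138, limma adjusted p = 0.0593). Of the replication histone genes, HIST1H2BK had 67.5 FPKM at 12 h, against 19.3 FPKM in DMSO, and HIST2H2BE had 17.8 FPKM at 12 h, against 4.92 FPKM in DMSO. Both rose (limma adjusted p = 0.0144 and 0.00259). The slope of MT-ND6 lay below the median of these RNAs, but the filter helped to choose them, so nothing is drawn from that. How far selection for poly(A) bears on MT-ND6 was not tested.

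The 5 nuclear genes whose profile over the 5 libraries came nearest to the mean heavy-strand gene, out of 9266 compared, were UGGT2, PTPRK, RBM39, PLCXD2 and PCGF5. Their root mean square differences from it were 0.0624 to 0.108 log2, against 0.214 for the heavy-strand gene farthest from that mean. UGGT2 had 11.6 FPKM in DMSO and 15.2, 18.4, 26.1 and 42.3 FPKM, and RBM39 had 773 FPKM at 12 h, against 218 FPKM in DMSO. Nearest to MT-ND6 were AL590762.1, RP11-96C23.15, TRIO, AP000758.1 and DTNB, at 0.0671 to 0.103 log2. TRIO had 16.7 FPKM in DMSO and 17.9, 17.1, 20.3 and 24.2 FPKM. The likeness is a description over 5 libraries.

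The mitochondrial genes were listed at or near 0 in the other 7 libraries of the series, with 1 exception. In the TE7 library with 200 nM THZ1 for 6 h and the 6 KYSE510 libraries, 7 of the 10 genes were listed at 0, and MT-CO3 and MT-ND4 were at 0.0335 to 0.631 and 0.231 to 2.19 FPKM. MT-ATP6 had 198 FPKM in the TE7 library at 200 nM. In KYSE510, MT-ATP6 had 41.7 FPKM in DMSO, 66.5, 62.1, 71.7 and 93.4 FPKM at 2, 4, 6 and 12 h of 50 nM and 546 FPKM at 200 nM. The 37 genes together took 0.00857% to 0.143% of the summed FPKM in those 7 libraries. Levels so far apart within TE7 at 6 h, at doses of 200 nM and 50 nM, rest on 1 library each, and whether they come from the cells or from how the tables were made was not tested. No comparison of dose or line was made from them.

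Nuclear copies of mitochondrial DNA can take up mitochondrial reads, and 180 genes with the symbols of such copies were summed. In the 5 TE7 libraries they summed to 37.7 FPKM in DMSO and 73.5, 77.7, 99.6 and 152 FPKM after 2, 4, 6 and 12 h. That is at most 0.0209% of the summed FPKM of all genes. Most of this was MTATP8P1 on chromosome 1, 97.6% identical to MT-ATP8, with 139.6 FPKM at 12 h, against 35.2 FPKM in DMSO. MTND1P23, 99.1% identical to MT-ND1 over 352 aligned bases, stayed at 0.434 to 2.94 FPKM in these libraries. MTATP6P1 (98.5% identical to MT-ATP6), MTND4P12 (95.8% to MT-ND4) and MTRNR2L12 (95.04% to MT-RNR2) were at most 2.39 FPKM there. Reads that match both places are uncertain. The copies held 0.0701% to 0.0962% of the summed FPKM of the mitochondrial genes in the 5 libraries.

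**Figure D4:**
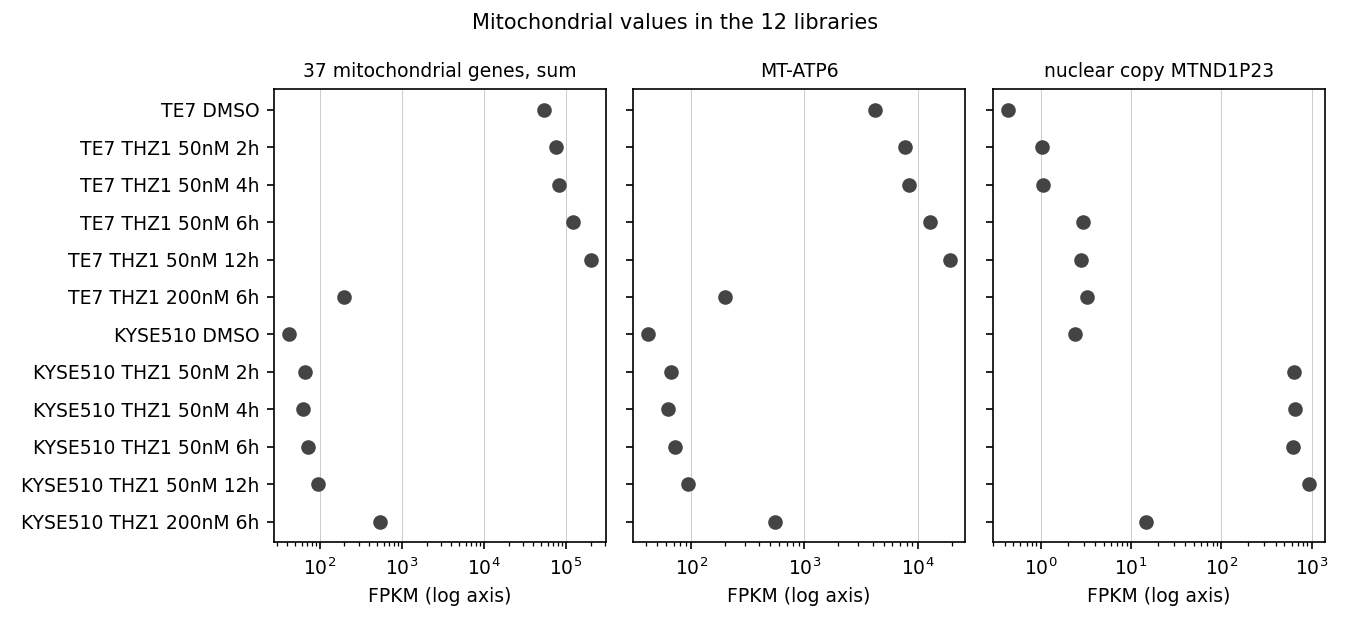
FPKM on log axes in the 12 libraries, 1 point each, for the sum of the 37 mitochondrial genes, for MT-ATP6 and for the nuclear copy MTND1P23. The 5 TE7 libraries of DMSO and 50 nM THZ1 stand apart with the mitochondrial sum, while MTND1P23 is highest in the 4 KYSE510 libraries at 50 nM, at 617 to 947 FPKM.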

How the data were processed

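Gene tables of 12 libraries hold FPKM that the authors deposited, with 95% bounds and a status per gene per the file headers. Reads were handled with STAR and Cufflinks on hg19 per the submitters' processing notes. A table of the whole series was not used, since small numbers in it have damaged signs.

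The 108 identifiers at several loci were summed. Slopes on hours (DMSO at 0) were fitted with limma 3.58.1 in R 4.3.3 to log2(FPKM + 1), with variances that follow the mean, over 13828 genes at or above 1 FPKM in at least 2 of the 5 libraries. Two-sided p-values were adjusted by Benjamini-Hochberg over these genes, and those under 0.05 count as called. There were 3 residual and 2.95 prior degrees of freedom. Changes from DMSO have 1 library a side and no test. After the data were seen, 28 genes with a failed status were left out, and the exact permutation test against MT-ND6 was added. That question was first asked with limma on the differences, which was replaced after its result was known because all differences share the scatter of MT-ND6. The fit was tested on simulated data.

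The 10 genes and the nuclear lists were chosen with earlier results of these data known. The text names the 10 genes, the other mitochondrial genes at or above a mean of 1 FPKM and the 5 highest nuclear copies. It also names 9 preset transcription and RNA factors and the 5 nearest profiles. From each list it names some, not all, of the 6 called genes with the largest absolute slopes. FASTKD5, HIST1H3B and NDUFS1 are named for the reasons given with them. Symbols of MTERF1 and MTERF3 were matched to older names after the data were seen. Copies on chromosome 8 are not reported here.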

Additional observations from a re-analysis of the deposited data

Results flagged for a closer look

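Signals in libraries that entered no comparison are given here as values, each the highest treated KYSE510 library where it was at least 10-fold above KYSE510 DMSO. MT-ATP6 had 546 FPKM in KYSE510 with 200 nM THZ1 for 6 h, against 41.7 FPKM in KYSE510 DMSO, while 7 of the other 9 protein genes followed here were listed at 0 in both. The nuclear copy MTND1P23 had 947 FPKM in KYSE510 with 50 nM THZ1 for 12 h, against 2.40 FPKM in KYSE510 DMSO, and had 14.7 FPKM at 200 nM. At 2, 4 and 6 h of 50 nM it already had 643, 648 and 617 FPKM in KYSE510. MTATP8P1 had 31.7 FPKM, MTATP6P1 38.6 FPKM and MTRNR2L12 18.4 FPKM in KYSE510 with 200 nM THZ1, against 1.19, 3.72 and 0.61 FPKM in KYSE510 DMSO. Each condition has 1 library, and the source of these values was not tested.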

How the results depend on the processing

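No paired analysis was possible because each condition of TE7 has 1 library and the labels give no replicate numbers that pair them. Under the alternatives run, no slope of the 10 genes and no change from DMSO in the heavy-strand median or MT-ND6 turned its direction. The median slopes of nuclear complexes I and V turned negative with equal sums (-0.0173 and -0.00251), and that of complex III turned positive with equal nuclear sums (0.00167) and median of ratios (0.0366). The slope of MT-ND6 stayed below all 9 heavy-strand slopes in each of the 17 fits. Cause was not tested for any shift below.

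Genes that rose numbered 400 with equal sums over all genes, 1838 with median-of-ratios scaling and 402 with log2(hours + 1), against 825. Genes that fell numbered 3893 and 2866 under the last 2 of these, against 5986. Leaving out 1 library at a time gave 466 (without 2 h) to 1278 (without DMSO) genes that rose and 2886 (without 12 h) to 6922 (without DMSO) that fell; without 12 h, 540 rose. The median heavy-strand slope was 0.139 with equal sums, 0.202 with median of ratios and 0.145 (without DMSO) to 0.168 (without 12 h) with 1 library left out. The slope of MT-ND6 passed with median of ratios (0.0844, limma adjusted p = 0.0272) and without DMSO (0.0565, limma adjusted p = 0.0454), and otherwise did not, with limma adjusted p up to 0.428 without 12 h and slopes from 0.0443 (without 4 h) to 0.0565 with 1 library left out. Of the heavy-strand genes, 6 passed with no filter, where 917 of all genes rose. MT-CO1, MT-CO2 and MT-ATP6 did not pass there (limma adjusted p = 0.05004, 0.0679 and 0.051). With log2(hours + 1) 8 passed, where 402 of all genes rose, and MT-CO1 did not (limma adjusted p = 0.0672).

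The median heavy-strand change at 2, 4, 6 and 12 h was 0.52, 0.59, 0.98 and 1.68 log2 with equal sums, 0.59, 0.66, 1.14 and 2.01 with equal nuclear sums, and 0.51, 0.63, 1.18 and 2.38 with median of ratios. The change of MT-ND6 was 0.062, -0.18, 0.25 and 0.22 with equal sums, 0.13, -0.11, 0.42 and 0.55 with equal nuclear sums, and 0.047, -0.14, 0.46 and 0.92 with median of ratios. Against the median heavy-strand gene, MT-ND6 was at -0.89 in DMSO and -1.43, -1.67, -1.62 and -2.51 at the 4 times. With limma on the differences from MT-ND6, 9 heavy-strand genes were steeper past the threshold (adjusted p up to 0.0354), where the exact permutation test gave 0, with 2019 genes at its smallest p and 2305 needed there to pass. Other pseudocounts, the highest locus, other variance models and failed estimates kept moved no count of calls by over 1.5 times. With 1 library a condition, biological spread is not measured.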
